A study of Homo sapiens with 4 samples.

Results

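The distal sites cobound by SS18::SSX and WDR5 are 3378 of the 15141 SS18::SSX peaks called in DMSO-treated HSSY II cells (22.3%, 95% interval 21.6 to 23.0). A peak was a member if it shared at least 1 bp with a WDR5 peak of the DMSO library, and if its centre lay outside the stretch from 1000 bp upstream to 100 bp downstream of every annotated transcript start of a protein-coding or lncRNA gene (GENCODE 44, hg38). The members were thus chosen by peak calls in the 2 DMSO lists, so their DMSO values are given as description, and only the 2 MS67 lists, the annotation and the sequence were not used in that choice. Of all SS18::SSX peaks, 5098 overlapped a WDR5 peak (33.7%), and the 1720 of them that are not members sat at promoters. Another 8177 SS18::SSX peaks were distal without a WDR5 peak, and 1866 were at promoters without one.

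HSSY II is an established human synovial sarcoma cell line that carries the SS18::SSX1 fusion. Cells were treated for 4 days either with DMSO or with 2.5 μM MS67, a bifunctional small molecule that links a WDR5 binder to a ligand of the VHL E3 ligase so that WDR5 is degraded. In CUT&RUN an antibody brings micrococcal nuclease to chromatin, and the released fragments are sequenced. Each assay used 1000000 HSSY II cells and 50000 mouse NIH-3T3 cells as spike-in. The SS18::SSX assays added an anti-GFP antibody for spike-in cells that express H2B-GFP. There are 4 peak lists, SS18::SSX and WDR5 each after DMSO and after MS67, with 1 library per group. No replicate check was possible and no test between treatments was made; intervals are exact Clopper-Pearson 95% intervals, which cover counting error over peaks only, and neighbouring peaks are not independent of each other.

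SS18::SSX is the fusion that defines synovial sarcoma. Its SS18 moiety enters the SWI/SNF (BAF) chromatin-remodelling complexes and its SSX tail binds nucleosomes that carry Polycomb-deposited H2AK119ub1, so the fusion is known for placing remodellers at developmental genes that are otherwise silent. WDR5 is a WD40-repeat scaffold of the KMT2 (MLL) complexes, which methylate histone H3 lysine 4, a mark found at promoters and, in its less methylated forms, at enhancers. Distal binding sites can lie in enhancers, in the bodies of genes or at unannotated start sites, and peak lists alone do not tell these apart.

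The sequence under the SS18::SSX summit is shown for 5 members, as 200-bp windows of the hg38 forward strand. The first is the member with the highest SS18::SSX −log10 q, which was also the strongest one with peaks of both proteins under MS67. The next 3 are the strongest ones with an AP-1 motif, a CCAAT box and the CTCF core motif outside stretches of raised background, which are defined with the results. The last is the strongest one within such a stretch. Capitals mark the motif, which in the first window is the SP/KLF hexamer, and in the last window none of the AP-1, CTCF core, CCAAT-box or SP/KLF letters occurred.
Near NPIPA7, chr16:16365331-16365530, SP/KLF: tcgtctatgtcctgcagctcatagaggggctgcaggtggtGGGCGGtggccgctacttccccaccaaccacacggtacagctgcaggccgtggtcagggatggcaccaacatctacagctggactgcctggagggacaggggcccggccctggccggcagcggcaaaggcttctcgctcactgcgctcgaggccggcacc
Near ENSG00000289905, chr21:5101897-5102096, AP-1: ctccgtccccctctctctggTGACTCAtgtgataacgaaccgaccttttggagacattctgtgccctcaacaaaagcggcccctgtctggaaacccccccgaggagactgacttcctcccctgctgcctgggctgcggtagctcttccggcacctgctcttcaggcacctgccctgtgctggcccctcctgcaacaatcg
Near KCNQ5-AS1, chr6:73133478-73133677, CCAAT box: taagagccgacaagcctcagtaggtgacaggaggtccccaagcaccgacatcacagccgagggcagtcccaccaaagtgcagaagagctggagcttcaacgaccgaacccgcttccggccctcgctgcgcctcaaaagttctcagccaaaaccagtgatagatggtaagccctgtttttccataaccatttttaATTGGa
Near ENSG00000274937, chr15:74374749-74374948, CTCF core: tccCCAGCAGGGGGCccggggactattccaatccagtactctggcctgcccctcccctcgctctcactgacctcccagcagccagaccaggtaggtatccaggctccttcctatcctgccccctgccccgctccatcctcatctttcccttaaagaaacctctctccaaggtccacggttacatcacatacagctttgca
Near ENSG00000286296, chr18:79547750-79547949, raised background: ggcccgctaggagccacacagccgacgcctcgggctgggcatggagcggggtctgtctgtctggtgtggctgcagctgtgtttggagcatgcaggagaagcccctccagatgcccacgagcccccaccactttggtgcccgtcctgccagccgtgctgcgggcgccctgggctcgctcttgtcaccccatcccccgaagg

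The 3378 members were mostly short, moderate peaks with a few strong ones. SS18::SSX peaks had a median width of 255 bp and spanned up to 3232 bp, and their −log10 q had a median of 4.06 and ran from 1.31 to 69.1. The number of fragments stacked at each summit, solved from the fold enrichment and the p-value of each peak, had a median of 17 for SS18::SSX (range 5 to 194) and 18 for WDR5 (range 4 to 128). A median member thus rests on fewer than 20 fragments of each protein. The SS18::SSX and WDR5 summits were a median of 127 bp apart, within 100 bp at 1464 members (43.3%) and within 500 bp at 3040 members (90.0%). WDR5 covered at least 50% of the SS18::SSX peak at 2538 members (75.1%), and 98 members overlapped more than 1 WDR5 peak. At the limits of the definition, the member nearest to the upstream limit lay at -1002 bp from ZCCHC24 (−log10 q 3.83), and the nearest peak left out at -994 bp from ENSG00000255191 (3.59). On the downstream side the nearest member was at RAB37 (7.56), and a peak at 100 bp from SLC37A4 (1.98) was left out. Only 1 bp was shared with WDR5 at the weakest overlap, and 20 members shared 10 bp or fewer.

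Most members lay within genes. The centre was in an intron at 1738 members (51.5%, 49.7 to 53.1), between genes at 1119 (33.1%, 31.5 to 34.7) and in an exon at 521 (15.4%, 14.2 to 16.7). The distal peaks without WDR5 had 52.3% in introns (difference -0.806 percentage points, with an interval of -2.82 to 1.21 that includes 0) and a smaller share in exons (10.4%, difference 5.07 points, 3.68 to 6.49). The median distance to the nearest start site was 5657 bp, against 8815 bp without WDR5. Members were not evenly spread over that distance: 861 of them (25.5%) lay up to 1 kb from a start site, all downstream of it because the definition leaves out the upstream side, whereas 10.9% of the distal peaks without WDR5 did (895 of 8177, 10.3 to 11.6). A further 417 members (12.3%) were at 1 to 2 kb and 751 (22.2%) at 2 to 10 kb. Another 927 (27.4%) were at 10 to 50 kb, 221 (6.54%) at 50 to 100 kb and 201 (5.95%) farther away. In all, 2321 members (68.7%) were downstream of the nearest start site, and that start belonged to a protein-coding gene at 2096 members (62.0%). At 45 members (1.33%) the centre was at the start site of a gene of another type, such as a pseudogene or small RNA.

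**Figure D1:**
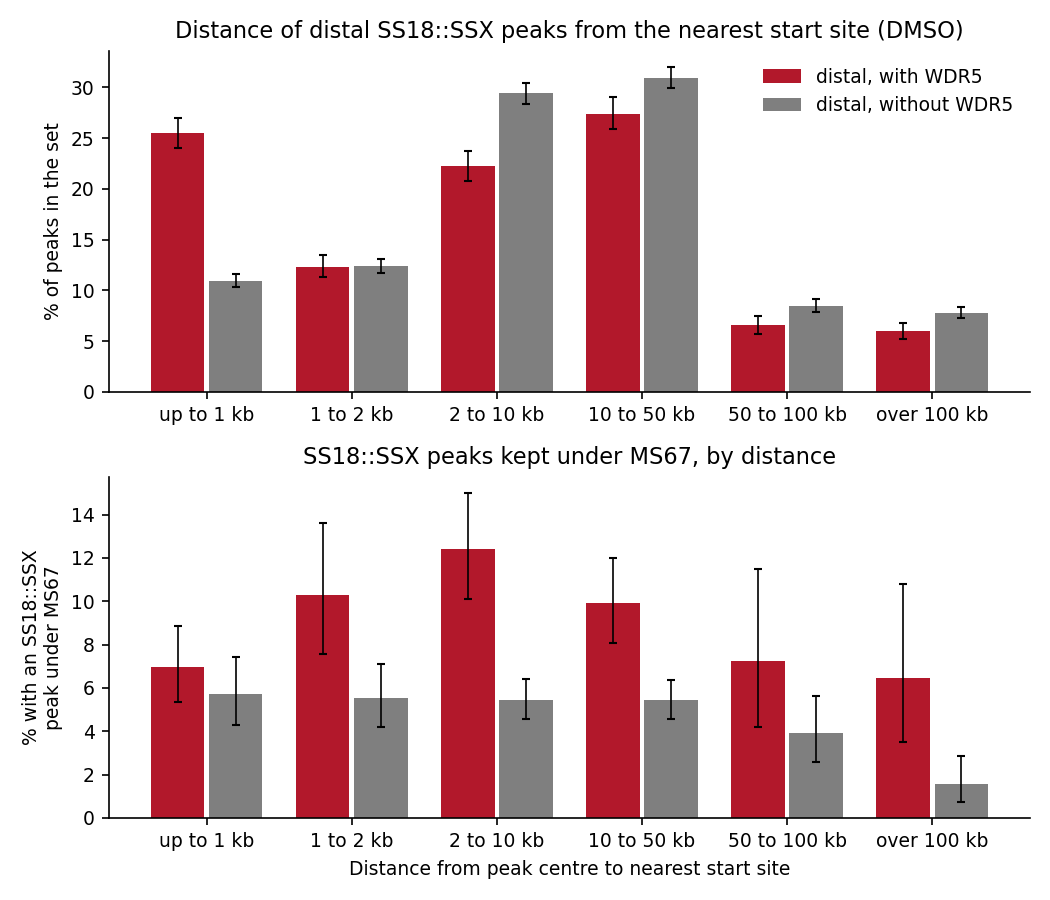
Upper panel, the percentage of distal SS18::SSX peaks at each distance from the nearest start site, for the 3378 members (red) and the 8177 distal peaks without WDR5 (grey); lower panel, the percentage of them overlapped by an SS18::SSX peak under MS67. Bars are shares and whiskers exact 95% intervals; 25.5% of members against 10.9% of the other set lay within 1 kb, and the kept share of members ran from 6.47% to 12.4% across the bins.

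At most members no SS18::SSX peak was called under MS67. No SS18::SSX peak of the MS67 list overlapped 3061 of the 3378 members (90.6%, 89.6 to 91.6), beside 94.2% of all 15141 SS18::SSX peaks. Below, a protein is called kept at an SS18::SSX peak if an MS67 peak of that protein overlapped this SS18::SSX peak by at least 1 bp, and lost if not. For WDR5 too the overlap is with the SS18::SSX peak. Only where WDR5 DMSO peaks themselves are counted is it with the WDR5 peak. The 317 members that kept SS18::SSX were 36.1% of the 879 SS18::SSX peaks kept anywhere (32.9 to 39.3), more than the 22.3% that members make up of the list. The loss was smaller than at cobound promoters, where 1632 of 1720 peaks were lost (94.9%, difference -4.27 percentage points, interval -5.70 to -2.77), and smaller than at distal peaks without WDR5, where 7765 of 8177 were lost (95%, difference -4.35 points, -5.48 to -3.26). The 2 SS18::SSX lists ended at unlike levels. The lowest −log10 p was 4.05 in DMSO and 5.04 under MS67, and the fewest summit fragments were 5 and 7. Whether weak peaks went uncalled under MS67 without a change in binding was not tested. The 2 comparison sets share the MS67 library with the members, and whether a second pair of libraries would give these differences was not tested.

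The kept share rose with the −log10 q and the width of the peak in DMSO, and members were higher in both than the other sets. By summit fragments members (median 17) lay between cobound promoter peaks (11) and distal peaks without WDR5 (19). All SS18::SSX peaks were split into 3 equal classes of strength by −log10 q. In the lowest class 99.0% of members were lost, in the middle class 94.9% and in the highest class 81.6% (79.5 to 83.6). Of the members, 1382 (40.9%) were in the highest class, against 30.1% of cobound promoter peaks and 33.1% of distal peaks without WDR5. In the highest class the difference in loss was -6.39 points from cobound promoters (interval -9.81 to -2.68) and -7.26 points from distal peaks without WDR5 (-9.69 to -4.89). In the lowest class it was 0.173 points (-0.916 to 1.47) and 0.190 points (-0.740 to 0.896), with at most 31 kept peaks in any of the 3 sets. Width gave the same picture. Of members up to 200 bp wide 25 of 1164 were kept (2.15%), of those above 200 and up to 400 bp 59 of 1282 (4.60%), and of those over 400 bp 233 of 932 (25.0%, 22.2 to 27.9). In that widest class 16.5% of promoter cobound peaks (13.0 to 20.6) and 18.9% of distal peaks without WDR5 (16.8 to 21.1) were kept. Kept members had a median width of 647 bp and 32 SS18::SSX fragments in DMSO; lost members had a median of 243 bp and 15 fragments. A wide peak offers more bases for an overlap, both under MS67 and with the WDR5 DMSO peaks that chose the members. An MS67 peak covered the DMSO summit itself at 220 members (6.51%, 5.70 to 7.40), at 3.55% of promoter cobound peaks (2.72 to 4.53) and at 3.38% of distal peaks without WDR5 (2.99 to 3.79).

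**Figure D2:**
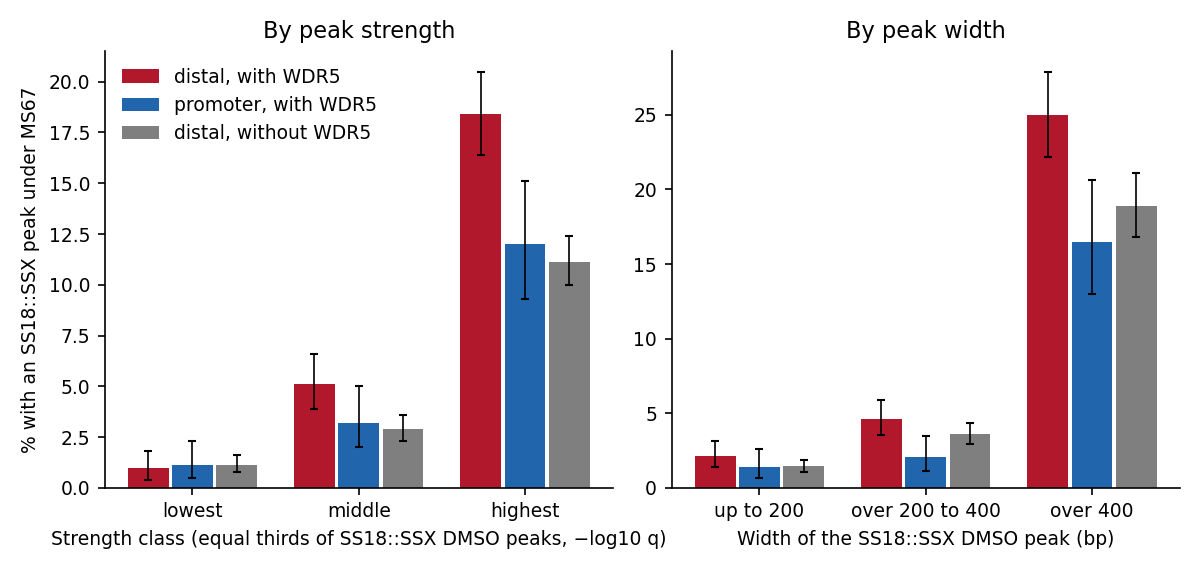
The percentage of SS18::SSX DMSO peaks overlapped by an SS18::SSX peak under MS67, by strength in −log10 q, as the lowest, the middle and the highest class of the whole list (left) and by peak width in bp (right), for members (red), cobound promoter peaks (blue) and distal peaks without WDR5 (grey). Bars are shares and whiskers exact 95% intervals; the sets lie together in the lowest class, and in the class over 400 bp wide 25.0% of members were kept.

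Where SS18::SSX was kept, the summit of the overlapping MS67 peak was usually lower relative to background than the DMSO summit. In fragments, the medians at the 317 kept members were close, with 32 in DMSO and 30 under MS67. The lower values relative to background thus rest largely on the scaling described next. The lists do not give library depth, so summit fragments were divided by the lowest expected fragment count per position at any peak of the library. This value was taken as the genome-wide background, which assumes that MACS2 used the genome-wide mean as its floor, a setting not given in the sources used here. It was 0.541 for SS18::SSX in DMSO and 0.737 under MS67 (1.36 times), and for WDR5 0.368 and 0.168 (0.458 times). Of the peaks, 413 of 15141, 8 of 1175, 1317 of 35605 and 530 of 14123, in the same order, lay within 1% of it, so the value for SS18::SSX under MS67 rests on the fewest peaks. Under that assumption the SS18::SSX library was deeper and the WDR5 library shallower under MS67 than in DMSO. At the 317 kept members the SS18::SSX summit stood at a median of 59.2 times background in DMSO and 40.7 times under MS67, with a median ratio of 0.685 (quartiles 0.571 and 0.819), and the ratio was under 1 at 279 of them (88.0%). The kept cobound promoter peaks (median ratio 0.655, n = 88) and kept distal peaks without WDR5 (0.734, n = 412) had ratios in the same range. These ratios take no account of the mouse spike-in, of which the peak lists hold no reads. They also compare overlapping peaks rather than fixed positions. Of the 317 kept members, 120 had the DMSO and MS67 summits within 100 bp (37.9%, 32.5 to 43.4). At the other 197 the summits lay farther apart, and members that share an MS67 peak share its value. The same limit holds for the SS18::SSX fragment pairs of single members given below. Fewer cells with a bound site and less binding per cell cannot be told apart.

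By called peaks, WDR5 was lost at fewer members than SS18::SSX was. The 2 MS67 lists ended at unlike levels. The lowest −log10 p was 5.04 for SS18::SSX and 4.06 for WDR5, and the fewest summit fragments were 7 and 3. Whether the 2 proteins differed in loss of binding was not tested. No WDR5 peak under MS67 overlapped 2549 members (75.5%, 74.0 to 76.9), while 88.8% of all SS18::SSX peaks had none, a set in which most peaks had no WDR5 peak in DMSO either. A WDR5 peak can persist beside the SS18::SSX peak without overlapping it. When the WDR5 DMSO peaks of each member were followed instead, 69.6% of members had lost WDR5 (68.0 to 71.1). Counted over WDR5 peaks, 2366 of the 3329 WDR5 DMSO peaks at members were lost (71.1%, 69.5 to 72.6), beside 75.0% of all 35605 WDR5 peaks, 75.4% of those elsewhere (74.9 to 75.9) and 82.0% of the 20343 distal WDR5 peaks without SS18::SSX (81.5 to 82.5). WDR5 was stronger at members, with medians of 18 fragments and a −log10 q of 5.26, than at distal peaks without SS18::SSX, with 12 and 4.02. When the WDR5 list was split by −log10 q into 3 classes of equal size, 88.1% of the weak peaks at members were lost (85.7 to 90.3), against 87.7% of the weak peaks elsewhere (87.1 to 88.4). In the middle class the shares were 79.3% (76.7 to 81.7) and 80.1% (79.4 to 80.9), and in the strong class 56.0% (53.4 to 58.5) and 57.4% (56.4 to 58.3). Within each class the intervals of members and of peaks elsewhere overlapped. Distal WDR5 peaks without SS18::SSX were lost at 91.2% (90.6 to 91.9), 85.9% (85.0 to 86.7) and 64.1% (62.9 to 65.4) in the weak, middle and strong class. Each of these shares was above that of members, with intervals that did not overlap. The sets are unlike in position, however. A WDR5 peak at a member was taken by overlap and could itself be centred at a promoter, whereas the comparison peaks were distal. Of the members, 861 (25.5%) lay up to 1 kb from a start site. What part this had in the differences, including that between 71.1% and 82.0%, was not tested. At cobound promoters 1200 of 1720 had no WDR5 peak (69.8%), a difference of 5.69 percentage points (3.07 to 8.35). By the lowest background, the WDR5 library under MS67 had less than 50% of the DMSO depth. When WDR5 summit fragments and background at each member were multiplied by 0.458, 1904 members (56.4%) would still have reached the lowest −log10 p in the MS67 list. Of these 1294 were lost (68.0%, 65.8 to 70.1), against 1255 of the other 1474 (85.1%, 83.2 to 86.9). The scaled summit is that of the WDR5 peak, whereas loss is scored at the SS18::SSX peak. A WDR5 peak that persisted outside the SS18::SSX peak thus counts as lost, so these shares do not measure WDR5 loss beyond depth. At the 829 members that kept WDR5, the summit relative to background had a median ratio of 1.17 (quartiles 0.919 and 1.45) and was above 1 at 550 of them (66.3%). Those members had to be called in the shallower library to enter this ratio, so it does not describe WDR5 at all members and cannot be set against the SS18::SSX ratio, for which the MS67 library was the deeper one by the same measure.

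**Figure D3:**
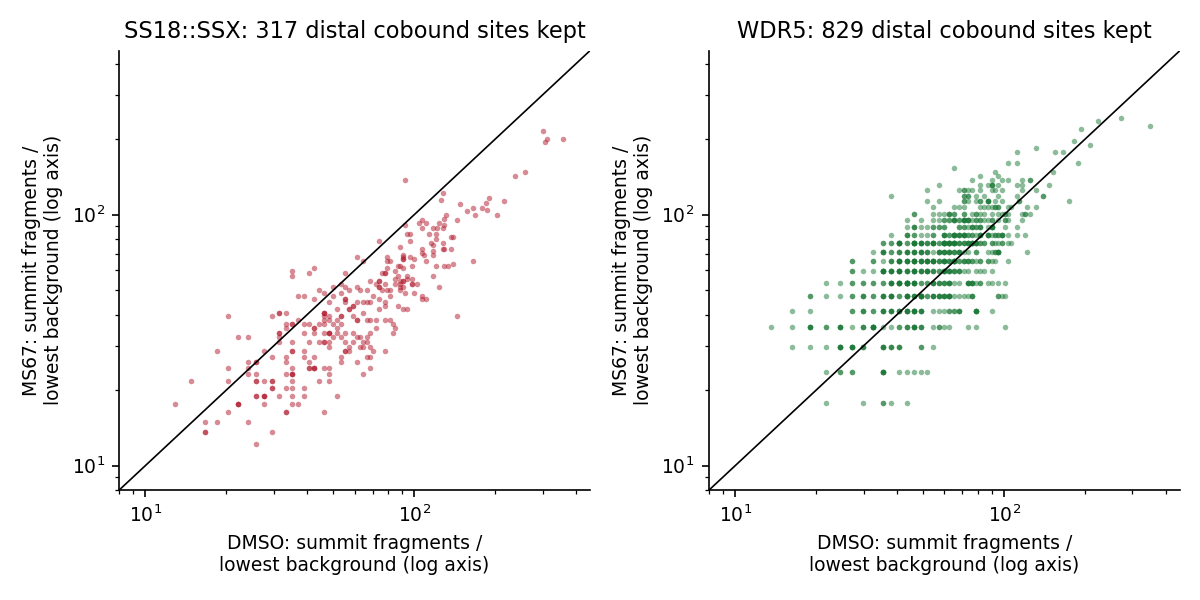
Summit fragments divided by the lowest background at any peak of the library, in DMSO (x axis) and under MS67 (y axis), both on log axes, for the 317 members that kept SS18::SSX (left) and the 829 that kept WDR5 (right). Each point is 1 member and the line marks equal values. The SS18::SSX points lie mostly below the line (median ratio 0.685) and the WDR5 points on both sides of it (median 1.17). On the left, the MS67 value is that of the overlapping MS67 peak, whose summit can lie away from the DMSO summit. The panels cannot be compared with each other, since only members called under MS67 are drawn, where the lowest background was 1.36 times (left) and 0.458 times (right) its DMSO value.

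Both proteins were kept at few members. SS18::SSX was kept at 9.38% of members, so both could be kept at no more than that share. Neither was kept at 2329 members (68.9%, 67.4 to 70.5), WDR5 alone at 732 (21.7%), SS18::SSX alone at 220 (6.51%) and both at 97 (2.87%, 2.33 to 3.49). Both were kept at 24 of the 1720 cobound promoter peaks (1.40%, 0.896 to 2.07). Over all 15141 SS18::SSX peaks, both were kept at 0.905% (0.760 to 1.07) and neither at 83.9%. Most of those peaks had no WDR5 peak in DMSO. Among members that kept SS18::SSX, 30.6% had a WDR5 peak under MS67 (25.6 to 36.0); among those that lost it, 23.9% had one (22.4 to 25.5). In the highest class by SS18::SSX −log10 q the shares were 33.5% (27.7 to 39.6) and 24.1% (21.6 to 26.7), and in the middle class 18.5% (9.25 to 31.4) and 23.9% (21.3 to 26.7). At cobound promoters they were 27.3% (18.3 to 37.8) and 30.4% (28.2 to 32.7), with overlapping intervals.

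Part of the members lay in stretches where background itself was high. Raised background was defined on 1993 bins of 1 Mb with at least 5 WDR5 peaks, as the 100 whose median local background in the WDR5 DMSO library was highest (above 9.81 times the lowest background). These bins held 695 members (20.6%, 19.2 to 22.0), 10.3% of cobound promoter peaks and 18.4% of distal peaks without WDR5. SS18::SSX was kept at 110 of the 695 (15.8%, 13.2 to 18.8) and at 207 of the 2683 members elsewhere (7.72%, 6.73 to 8.79). Outside these bins 4.47% of cobound promoter peaks (3.50 to 5.63) and 3.88% of distal peaks without WDR5 (3.43 to 4.37) were kept, so members kept the larger share there as well. WDR5 was kept at 29.1% of members in the bins and 23.4% outside. Position along the chromosome moved with the same outcome: 1063 members (31.5%) lay within 5 Mb of a chromosome end and 16.5% of them kept SS18::SSX (14.3 to 18.8), against 6.13% of the rest (5.19 to 7.19). Of those 1063, 438 were in raised background, and among the other 625 the kept share was 14.4% (11.7 to 17.4), against 5.69% of members far from an end and outside raised background (4.72 to 6.77). What part background or chromosome position had in the kept peaks was not tested.

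Members also occurred in groups. Joined across gaps of up to 10 kb they formed 2729 loci, of which 2255 held a single member, 461 held 2 to 4 and 13 held 5 or more, up to 9. SS18::SSX was kept at 6.65% of single members (5.66 to 7.76), 13.9% of those in loci of 2 to 4 (11.8 to 16.1) and 27.4% of those in the largest loci (18.2 to 38.2), and the share in raised background was 13.3%, 32.4% and 70.2% in the same order. The nearest genes numbered 2339, of which 1733 had 1 member, 563 had 2 to 4 and 43 had 5 or more.

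Several genes had 10 or more members, and those described here had all of them in raised background. The lncRNA gene ENSG00000261710 on chromosome 8 had 11 members, and EDAR, a TNF receptor family member of skin appendage development, INPP5A, an inositol phosphatase, PARD3, a cell polarity scaffold, and the lncRNA gene ENSG00000233082 had 10 each. SS18::SSX was kept at 4 of the 11 members of ENSG00000261710, 3 of the 10 of INPP5A, 2 each of EDAR and ENSG00000233082, and 1 of PARD3. At PARD3 WDR5 was kept at 6 of the 10 members. All members of PARD3 and INPP5A were intronic. The 1 PARD3 member that kept SS18::SSX had 50 fragments in DMSO and 101 under MS67, and the strongest INPP5A member had 100 SS18::SSX fragments in DMSO and 82 under MS67.

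The member with the highest SS18::SSX signal stood between genes at chr16:16365186-16365702, 13696 bp upstream of NPIPA7, and its summit window is the first of those printed. It had 78 SS18::SSX fragments in DMSO (fold 18.9, −log10 q 69.1) and 29 under MS67 (fold 10.4, −log10 q 18.6), a fall from 144 to 39.3 times background, while WDR5 had 7 and 5 fragments. NPIPA7 belongs to a multigene family of near-identical copies on chromosome 16, so reads there can come from more than 1 copy and its values are uncertain. The same holds for the member near NPIPB4, of the same family, which kept both proteins with 23 SS18::SSX fragments in DMSO and 26 under MS67. TPSAB1, a mast cell tryptase gene in a cluster of similar copies, had a member 6211 bp downstream of its start that kept both, with 29 and 27 SS18::SSX fragments and 9 and 5 WDR5 fragments.

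Other strong members included both kept and lost sites. The member whose start site was nearest to KCNQ5-AS1, within an exon of the potassium channel gene KCNQ5 (chr6:73133437-73133683), had 54 SS18::SSX fragments (−log10 q 23.6) and 30 WDR5 fragments in DMSO and no peak of either under MS67. UNCX, a homeobox factor of the axial skeleton and nervous system, had a member 5832 bp upstream with 76 SS18::SSX and 26 WDR5 fragments (chr7:1226604-1227475, raised background), again with no peak of either under MS67. In an intron of ENSG00000288062 (chr9:92807127-92809437) SS18::SSX went from 60 to 34 fragments, 111 to 46.1 times background, and WDR5 from 18 fragments to no peak. The 5 members with the highest WDR5 −log10 q had 6 to 22 SS18::SSX fragments in DMSO. The first of them, 933 bp downstream of the start of PARD3-DT in raised background, had 128 WDR5 fragments in DMSO and 38 under MS67 (348 and 226 times background) and 22 and 27 SS18::SSX fragments (40.7 and 36.6 times). The member nearest to SEC31B, within an exon of WNT8B, had 39 WDR5 and 12 SS18::SSX fragments in DMSO and no peak under MS67, and the one in ZMIZ1-AS1 kept WDR5 (54 and 22 fragments, 147 and 131 times background) but not SS18::SSX.

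Developmental transcription factor genes were among the nearest genes. Of all 38854 gene symbols 6.02% were nearest to 1 or more members (7.46% of the protein-coding ones), and the counts of each list are to be read beside that share; the lists differ in gene spacing, which sets how often a gene can be the nearest. Of the LIM homeobox genes, which pattern motor neurons and limbs, 4 of 12 were nearest to a member (33.3%, 9.92 to 65.1), of the SOX genes 6 of 20 (30.0%, 11.9 to 54.3), of the developmental bHLH genes 10 of 35 (28.6%, 14.6 to 46.3) and of the NKX, IRX and sine oculis homeobox genes 7 of 26 (26.9%, 11.6 to 47.8). The T-box genes had 4 of 16 (25.0%, 7.27 to 52.4), the PAX genes 2 of 9 (22.2%, 2.81 to 60), the forkhead genes 8 of 45 (17.8%, 8.0 to 32.1) and the HOX genes 2 of 39 (5.13%, 0.627 to 17.3). SS18::SSX was kept at 9.38% of all members, and in these 8 families at none of the 7 SOX, 7 LIM homeobox, 9 forkhead, 4 T-box or 2 HOX members, at 1 of 12 PAX members, 2 of 13 NKX, IRX and sine oculis members and 4 of 16 bHLH members.

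SIM2, a bHLH-PAS factor of midline and craniofacial development, had 1 member 1246 bp upstream of its start (chr21:36697241-36698496), outside raised background. It held 68 SS18::SSX fragments in DMSO (−log10 q 12.2) and 84 under MS67 (7.46), which is 126 and 114 times background, and 34 WDR5 fragments in DMSO with no WDR5 peak under MS67. MNX1, a motor neuron homeobox gene, had a member in an exon 735 bp downstream of a start, in raised background, where SS18::SSX had 56 and 68 fragments (104 and 92.3 times background) and WDR5 26 and 20 (70.7 and 119 times). SIM2 and MNX1 come from a list of 8 genes picked as bound in the same cells, so they are no independent evidence. They were the 2 of the 8 nearest to a member, and both kept SS18::SSX. The study, which used spike-in controls, reports less binding of both proteins at these 2 genes under MS67. The values here come from called peaks at 1 site per gene and take no account of the spike-in. ASCL2, a bHLH factor of stem and trophoblast cells, had a member 1341 bp upstream with 37 SS18::SSX fragments in DMSO and 28 under MS67 (68.4 and 38.0 times background), and WDR5 went from 19 fragments to no peak.

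PAX2, a kidney and neural paired-box factor, had 9 members spread over more than 100 kb, none in raised background. The strongest, 3936 bp upstream of a start (chr10:100731077-100731842), was the only one of the 9 that kept SS18::SSX, with 49 fragments in both libraries (90.6 and 66.5 times background), and its 35 WDR5 fragments in DMSO had no peak under MS67. An intronic member 78358 bp downstream kept WDR5 (34 and 14 fragments). PAX5, a B-cell factor, had 3 members, and the strongest of them had 36 SS18::SSX fragments in DMSO, no SS18::SSX peak under MS67, and 31 and 13 WDR5 fragments.

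At the strongest members of the SOX, LIM homeobox, T-box and HOX families, and at IRX1, no SS18::SSX peak was called under MS67. SOX2, a pluripotency and neural progenitor factor, had a member in its exon 995 bp downstream of the start, in raised background, with 24 SS18::SSX and 41 WDR5 fragments in DMSO, no SS18::SSX peak and 15 WDR5 fragments under MS67. LHX4, a LIM factor of pituitary and motor neuron development, had 4 intronic members, all in raised background, of which the strongest had 32 SS18::SSX fragments and kept WDR5 only (29 and 20 fragments). The IRX1 member 4364 bp upstream (50 SS18::SSX and 32 WDR5 fragments, raised background), the LHX9 member (41 and 20), the EOMES member (24 and 21), the HOXC4 member (25 and 19) and the BHLHE23 member (75 and 31) had no peak of either protein under MS67. NKX1-1 had 2 adjacent members, the stronger 65060 bp upstream, that share 1 SS18::SSX peak under MS67 (40 fragments); the stronger had 48 SS18::SSX and 17 WDR5 fragments in DMSO.

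WNT pathway genes were nearest to 32 members, with 15 of 57 genes (26.3%, 15.5 to 39.7) including the ligands WNT1, WNT3A, WNT5A and WNT7B, the receptors FZD1, FZD9 and LGR5, the agonist RSPO2 and the Dickkopf-family gene DKK3. Of the 32, 10 were in raised background, 1 kept SS18::SSX and 8 kept WDR5, beside 20.6%, 9.38% and 24.5% of all members. TCF7L2, the nuclear effector of the pathway, had a member 101030 bp downstream with 50 SS18::SSX and 25 WDR5 fragments in DMSO, the WNT7B member 1006 bp upstream had 47 and 21, and the RSPO2 member in an intron had 38 and 26; no peak of either protein overlapped these 3 under MS67. The 1 that kept SS18::SSX was at FZD9, 1542 bp downstream, with 38 fragments in DMSO and 21 under MS67; it was named after its values were seen. The FGF ligand and receptor genes had 2 of 27 (7.41%, 0.910 to 24.3), of which the FGF19 member kept SS18::SSX (19 and 23 fragments, 35.1 and 31.2 times background).

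Chromatin-complex and structural genes gave shares whose intervals hold the 6.02% of all genes. They also hold the 7.46% of protein-coding genes, except that of the cytosolic ribosomal protein genes, whose upper bound is 6.17%. Members were nearest to 2 of 28 SWI/SNF subunit genes (7.14%), ARID1B and BCL7A, to 4 of 34 Polycomb genes (11.8%, 3.30 to 27.5), and to 1 of 20 KMT2 complex genes (5.0%), SETD1B. SETD1B is an H3K4 methyltransferase, and its intronic member had 24 WDR5 fragments in DMSO and 11 under MS67 with 10 SS18::SSX fragments in DMSO only. Of the cytosolic ribosomal protein genes 1 of 88 was nearest to a member (1.14%, 0.0288 to 6.17), RPL19, and of the Hippo pathway targets 0 of 18 (upper bound 18.5%). Of the mesenchymal and matrix genes 6 of 43 were (14.0%, 5.30 to 27.9). At SNAI1, which encodes a repressor of epithelial genes, a member 1020 bp upstream kept both proteins (23 and 18 SS18::SSX fragments, 42.5 and 24.4 times background, and 23 and 8 WDR5 fragments), and at CDH2, the N-cadherin gene, an intronic member with 30 SS18::SSX fragments kept WDR5 only (25 and 13 fragments).

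The GC content and CpG ratio of members lay between those of the other sets. In the 200-bp windows around the summit, members had a median of 61.0% GC and a CpG observed-over-expected ratio of 0.375, cobound promoter peaks 64.0% and 0.643, and distal peaks without WDR5 58.0% and 0.273. The largest motif difference was in SP/KLF (GGGCGG), the GC-box hexamer, found on either strand in 692 member windows (20.5%, 19.1 to 21.9), in 39.0% of cobound promoter windows, in 13.2% of distal windows without WDR5 (12.5 to 13.9) and in 20.4% of all SS18::SSX windows. The ETS core CCGGAA, which can overlap the TEAD motif CATTCC read on the other strand, was in 4.94% of members (4.24 to 5.73), 10.6% of cobound promoter windows, 3.95% of distal windows without WDR5 (3.54 to 4.40) and 5.59% of all. The RUNX core TGTGGT was less frequent in members (10.4%, 9.41 to 11.5) than in distal windows without WDR5 (13.0%, 12.3 to 13.7) and was in 11.2% of all. CCAAT was in 16.4% of members and 18.4% of all windows, the TEAD motif in 10.0% and 10.2%, and AP-1 (TGANTCA) in 4.03% and 4.13%. In the same order the SOX core AACAAT was in 3.4% and 3.53%, and the E-boxes CAGCTG in 15.9% and 15.0% and CACGTG in 4.65% and 4.42%. The homeodomain core TAATTA was in 1.42% and 1.47%, the NRF1 half-site GCGCATG in 1.12% and 1.18%, and the CTCF core in 0.474% and 0.416%. Not all motifs placed members between the other sets: in cobound promoter windows and distal windows without WDR5, CCAAT was in 17.5% and 18.8%, the TEAD motif in 10.3% and 10.5%, CAGCTG in 13.1% and 15.7% and the CTCF core in 0.349% and 0.428%.

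Motif shares moved with base composition. Among windows of 50 to under 65% GC the SP/KLF share was 13.6% of 1924 members (12.1 to 15.2), 10.6% of distal windows without WDR5 (9.69 to 11.5) and 25.4% of cobound promoter windows (22.6 to 28.5), and at 65% GC or more 41.5%, 34.1% and 57.3%. AP-1 was in 7.48% of members under 50% GC and in the same share of distal windows without WDR5. The kept share also moved with GC: SS18::SSX was kept at 3.97% of the 428 members under 50% GC (2.33 to 6.28), 9.82% of those from 50 to under 65% (8.53 to 11.2) and 10.8% of the 1026 at or above 65% (8.98 to 12.9). Within members, kept and lost sites held the motifs at shares with overlapping intervals, for SP/KLF 20.8% (16.5 to 25.7) and 20.5% (19.0 to 21.9), for AP-1 3.79% (1.97 to 6.52) and 4.05% (3.38 to 4.81) and for ETS 4.42% (2.44 to 7.30) and 5.0% (4.25 to 5.83). A match shows only that the letters occur in the window.

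**Figure D4:**
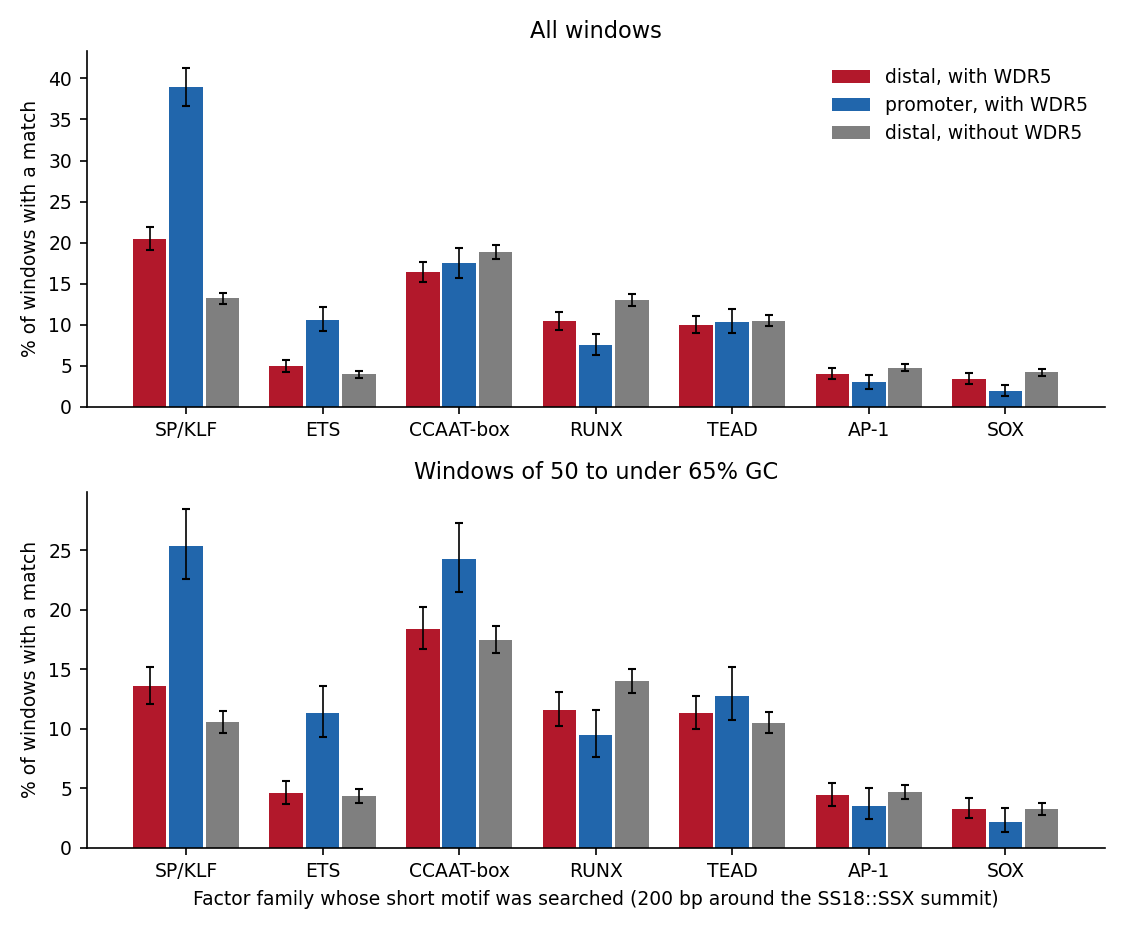
The percentage of 200-bp windows around the SS18::SSX summit that hold each short motif on either strand, over all windows (upper) and over windows of 50 to under 65% GC (lower), for members (red), cobound promoter peaks (blue) and distal peaks without WDR5 (grey). Bars are shares and whiskers exact 95% intervals; SP/KLF matches were in 20.5%, 39.0% and 13.2% of all windows and in 13.6%, 25.4% and 10.6% of the middle GC class.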

How the data were processed

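CUT&RUN for SS18::SSX and WDR5 was analysed in 4 HSSY II libraries, 1 per group. The authors aligned reads with Bowtie2 and removed non-primary alignments and PCR duplicates with SAMtools and Picard (builds hg38 and, for the spike-in, mm10), and MACS2 called peaks per library. The submitters' processing notes name SAMtools 1.9, bedtools 2.28.0 and deepTools 3.3.0; the methods give another SAMtools version. The deposited lists hold, for each peak, a fold enrichment (a ratio), a −log10 p-value and a −log10 q-value, a display score, which was not used, and the summit offset from the peak start. The MACS2 command options and control are not given in the sources used here. For its peaks the study's supplement states cutoffs of −log10 q above 3 and a fold above 3 (SS18::SSX) or 6 (WDR5). The deposited lists go down to a −log10 q of 1.3 to 1.35, so all their peaks were used and those cutoffs formed the stricter alternative. A spike-in scaling is stated for signals, not for peaks.

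Fragments k and background b at a summit were solved from fold = (k + 1)/(b + 1) and the Poisson p-value; whole fragments fitted 100% of peaks in each list (tolerance 0.001 in −log10 p), and the solver was tested on simulated data. The lists held 15141 (SS18::SSX, DMSO), 1175 (SS18::SSX, MS67), 35605 (WDR5, DMSO) and 14123 (WDR5, MS67) peaks. Start sites were all 194309 transcript starts of 38912 genes; peak centres were assigned to exon, intron or intergenic in that order. Shares carry exact 95% intervals for counting error only, and intervals of differences combine them as root sums of squares. With 1 library per group no test was run. Named genes were the nearest genes of the 10 members with the highest SS18::SSX and the 5 with the highest WDR5 −log10 q, of the 5 strongest with both under MS67, the 5 genes with the most members (6 with ties), and up to 3 per list; the text gives those with a symbol first, and the rest by count or position; some named items are not reported here. Members, the 17 gene lists and the 12 motifs were chosen with earlier results of these data known. Sequences were chosen among members outside chromosome 8. Alternatives concerned overlap, peak stringency, start sites, merging and background. Python 3.11.15, numpy 2.4.6, scipy 1.17.1, pandas 2.3.3, pysam 0.24.0 and matplotlib 3.10.9 were used.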

Additional observations from a re-analysis of the deposited data

How the results depend on the processing

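Of 54 alternative values, 32 stayed within the interval of the main value (within 1.5 times for the number of members), 22 moved and 0 reversed. Reversed means a change of sign, which only the differences in SS18::SSX loss could show. The number of members and the shares cannot change sign. The members numbered 411 with stricter peaks in all lists (−log10 q above 3, with a fold of more than 3 at SS18::SSX peaks and more than 6 at WDR5 peaks) and 1742 beyond 5 kb from any start site. SS18::SSX loss was 93.0% where WDR5 covered at least 50% of the peak, 94.4% with stricter peaks, 87.3% with peaks within 1 kb merged, 92.3% outside raised background, 85.1% when an MS67 peak within 1 kb counted, 95.1% when 50% coverage was required and 93.5% when the MS67 peak had to cover the DMSO summit. WDR5 loss was 72.8%, 87.8%, 71.3%, 61.6% and 85.7% under 50% WDR5 coverage, stricter peaks, merging, the 1 kb and the 50% settings, and 69.6% when the WDR5 peaks themselves were followed. The share in introns was 48.4% with stricter peaks and 43.7% beyond 5 kb. The difference in SS18::SSX loss from cobound promoters was -2.34 points with 50% WDR5 coverage and -6.12 points with merging, and from distal peaks without WDR5 -1.94, -2.29 and -8.14 points under 50% coverage, stricter peaks and merging. The stricter peaks follow the cutoffs that the study states for its peak calling. Beyond the settings' own construction, the cause was not tested. The basic transcript set, the summit rule, following WDR5 peaks and the 3 classes of WDR5 strength were chosen after seeing the data. No paired analysis was possible because each group is 1 library. Of the 4 lists, WDR5 under MS67 rests on the fewest fragments, with a median of 8 at the summit, against 13 in DMSO. What part library depth had in this was not tested.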

Other observations

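Chromosomes 10 and 7 held the most distal cobound sites. Chromosome 10 held 346 of them (10.2%, against 8.0% of all SS18::SSX peaks) and chromosome 7 held 323 (9.56%, against 8.67%). In raised background lay 141 of the 346 and 103 of the 323, beside 20.6% of all distal cobound sites. What part raised background had in these shares was not tested.

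The nearest gene of 970 sites (28.7%, 27.2 to 30.3) had an SS18::SSX peak at a promoter of its own, that of 1511 (44.7%, 43.0 to 46.4) a WDR5 peak there, and that of 660 (19.5%, 18.2 to 20.9) peaks of both. For distal SS18::SSX peaks without WDR5 the shares were 31.4% (30.4 to 32.4), 38.9% (37.9 to 40.0) and 19.0% (18.2 to 19.9).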
